A study of Mus musculus with 8 samples.

Results

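The genes described here are the Wnt ligands, their R-spondin enhancers, their receptors and co-receptors, and the secreted Sfrp and Dkk inhibitors. They were chosen by symbol alone (Wnt, Rspo, Fzd, Sfrp and Dkk followed by a number, together with Lrp5, Lrp6, Ror1, Ror2 and Ryk), and the rule reads no measured value. The rule found 46 genes among the 21757 of the mouse table and the same 46 symbols, as protein-coding genes, among the 60237 of the knockdown tables. In each table these were 19 Wnt ligands, 4 R-spondins, 10 Frizzled receptors, 2 Lrp co-receptors, 3 tyrosine kinase-like receptors (Ror1, Ror2, Ryk), 4 Sfrp genes and 4 Dkk genes. Polyadenylated RNA was sequenced from 8 libraries, with 2 in each of 4 groups. In the genotype experiment, Ctnnb1-ex3 small intestinal organoids of the mouse were compared with WT organoids; organoids are self-renewing epithelial cultures. Ctnnb1-ex3 usually denotes a beta-catenin allele without exon 3, whose product escapes degradation. The medium of the Ctnnb1-ex3 organoids held Noggin and EGF, and that of the WT organoids held the same factors with recombinant Wnt3a and R-spondin1 added. Genotype and medium therefore cannot be told apart in any difference below, and WT cells received from outside a protein of the very family measured here. In the knockdown experiment, libraries with a short hairpin against Prmt1 (sh-Prmt1), which encodes a major arginine methyltransferase, were compared with libraries with a scrambled hairpin (sh-scramble). The labels call these libraries mouse intestinal organoids, but the tables list human genes; the genotype and medium of these cells are not stated in the sources used here.

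Wnt proteins are lipid-modified ligands that are made in a cell by the acyltransferase Porcn and carried out by Wls. They bind Frizzled receptors together with Lrp5 or Lrp6, which keeps beta-catenin from being degraded, or they act through Ror2, Ryk and the planar polarity proteins without beta-catenin. R-spondins bind Lgr receptors and take away Rnf43 and Znrf3, the ubiquitin ligases that remove Frizzled from the surface. Sfrp proteins capture Wnt ligands, and Dkk1 and Dkk2 bind Lrp5 and Lrp6. In the mouse small intestine Paneth cells make Wnt3 and stromal cells make most other Wnt ligands and the R-spondins, so that epithelial cultures are usually given R-spondin from outside.

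The Ctnnb1-ex3 libraries held 6015933 and 3683169 counts and the WT libraries 4631527 and 2951887; the sh-Prmt1 libraries held 39608007 and 53193113 estimated counts and the sh-scramble libraries 39736161 and 45888075. Levels are CPM, counts relative to the TMM-scaled library size. A count of 3 corresponds to between 0.451 and 1.14 CPM in the genotype experiment and to between 0.0528 and 0.0809 CPM in the knockdown. PRMT1 stood at 2.99 and 3.35 CPM in sh-Prmt1 libraries, against 37.0 and 34.2 CPM in sh-scramble libraries. Ctnnb1 stood at 217 and 289 CPM in Ctnnb1-ex3 organoids, against 340 and 423 CPM in WT organoids; a count over the whole gene does not check the loss of 1 exon. A gene was called at an edgeR adjusted p under 0.05, adjusted over all genes tested. Folds are log2 fold changes ± SE with n = 2 libraries a group. The labels do not say whether replicates were separate cultures, so the spread that each p-value is based on could be technical.

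In Ctnnb1-ex3 organoids 11 of the 22 Wnt pathway genes with enough counts to pass the filter were called higher than in WT, and 1 was called lower. The called genes that were higher are the ligands Wnt3, Wnt5a and Wnt7b, the receptors Fzd2, Fzd3, Fzd7, Fzd9, Lrp5 and Ror2, and the inhibitors Sfrp5 and Dkk3; the single lower gene was Fzd5. Of all 12976 genes tested, 40.8% were called, 20.3% as higher and 20.5% as lower. The groups did not overlap in 15 genes that were higher and 2 that were lower. The same count was not made over all genes tested, so these counts are given as a description only. The median log2 fold change was 1.15 over the 22 genes and 0.02 over all genes tested. The other 24 of the 46 genes lay under the filter, with at most 25 counts in any library. Of the 22 tested, 6 had both WT libraries under the filter's minimum of 2.41 CPM, which is taken on library sizes before TMM scaling, and none had both Ctnnb1-ex3 libraries under it, so these 6 (Dkk2, Dkk3, Fzd9, Wnt2b, Wnt5a, Wnt7b) were tested only because of their level in Ctnnb1-ex3. Of these, Dkk3, Fzd9, Wnt5a and Wnt7b are among the genes called higher. The counts of genes called and not overlapping, and the median over tested genes, lean upward for that reason. They are given as a description.

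**Figure D1:**
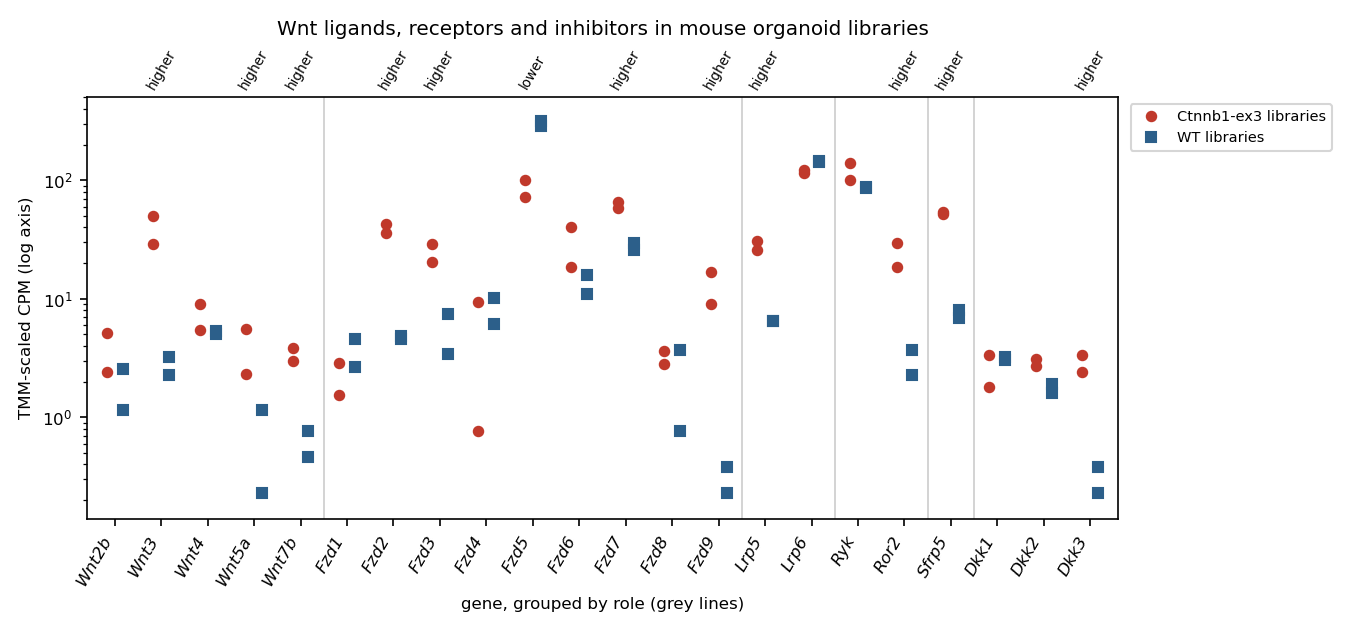
Level of each of the 22 tested genes in the 4 mouse organoid libraries (TMM-scaled CPM, log axis), with Ctnnb1-ex3 libraries as circles on the left and WT libraries as squares on the right of each gene; words above the frame mark called genes. Fzd5 is the called gene whose circles lie below its squares, and Fzd9 and Dkk3 stand at the lowest deposited count in both WT libraries.

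The start of transcription of genes that moved together can be compared in sequence. The 250 bases before the RefSeq start (GRCm38.p6, the build of the mouse table) were available for 30 of the 46 genes. They are printed here for Wnt3, Ror2 and Sfrp5, which were called higher, and for Fzd5, which was called lower, 5′ to 3′ on the strand of the gene, with every CG dinucleotide in capitals:
Wnt3, chr11:103773925-103774174, plus strand: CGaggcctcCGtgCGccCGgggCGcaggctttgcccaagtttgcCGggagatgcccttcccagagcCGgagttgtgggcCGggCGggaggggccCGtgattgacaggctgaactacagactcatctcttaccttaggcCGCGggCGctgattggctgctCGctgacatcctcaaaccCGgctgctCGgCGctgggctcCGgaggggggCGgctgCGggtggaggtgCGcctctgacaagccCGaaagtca
Ror2, chr13:53286125-53286374, minus strand: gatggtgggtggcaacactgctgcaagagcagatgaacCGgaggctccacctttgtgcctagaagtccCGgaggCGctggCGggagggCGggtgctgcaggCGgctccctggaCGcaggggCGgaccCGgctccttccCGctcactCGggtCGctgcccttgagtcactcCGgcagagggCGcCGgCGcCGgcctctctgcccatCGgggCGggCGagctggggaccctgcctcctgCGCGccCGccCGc
Sfrp5, chr19:42202253-42202502, minus strand: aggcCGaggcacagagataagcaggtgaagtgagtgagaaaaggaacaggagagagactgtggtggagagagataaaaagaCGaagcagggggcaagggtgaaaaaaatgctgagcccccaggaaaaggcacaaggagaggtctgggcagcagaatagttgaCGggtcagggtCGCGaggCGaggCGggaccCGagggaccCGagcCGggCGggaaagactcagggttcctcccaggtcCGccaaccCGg
Fzd5, chr1:64737751-64738000, minus strand: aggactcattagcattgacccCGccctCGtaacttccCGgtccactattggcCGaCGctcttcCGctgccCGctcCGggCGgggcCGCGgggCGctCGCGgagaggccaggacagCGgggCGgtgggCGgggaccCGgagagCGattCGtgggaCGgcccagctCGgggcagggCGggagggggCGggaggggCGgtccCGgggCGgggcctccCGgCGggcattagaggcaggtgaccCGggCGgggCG
These windows hold 22 CG dinucleotides for Wnt3, 24 for Ror2, 13 for Sfrp5 and 32 for Fzd5. The median was 22 over the 33 windows of these genes and 6 over 32851 windows of all genes, with an upper quartile of 16. Fzd5, Ror2 and Wnt3 lie above that quartile and Sfrp5 below it. The window of Fzd9, called higher and not printed, holds 42, so that genes called higher lie on both sides of Fzd5. The letters CTTTGAT or CTTTGAA, the form bound by Tcf and Lef proteins, were searched on both strands and do not overlap each other. They were found in 3 of the 30 genes, namely Dkk1, Wnt11 and Wnt5b, against 8.63% of 27025 genes in the RefSeq table. Dkk1 was not called, Wnt11 and Wnt5b lay under the filter, and no match was found in the windows of the 5 genes called higher that have one. A match or its lack in so short a window describes the letters only.

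Among the ligands, Wnt3 had the highest level per kilobase of exon in Ctnnb1-ex3 organoids. Wnt3, the ligand that activates beta-catenin signalling in the crypt, lies on mouse chr11:103774150-103817957. It had 192 and 196 counts in Ctnnb1-ex3 libraries, against 14 and 6 counts in WT libraries. In CPM these are 28.9 and 50.3 in Ctnnb1-ex3 and 3.22 and 2.28 in WT, so that the lower Ctnnb1-ex3 library was well above the higher WT library. The log2 fold change was 3.78 ± 0.44 (SE, edgeR adjusted p = 0.000657). Per kilobase of annotated exon, the 19 Wnt genes summed to 19.5 ± 5.86 CPM per kb in Ctnnb1-ex3 and 5.68 ± 0.572 CPM per kb in WT (SD, n = 2). Wnt3 made up 60.5% and 68.6% of that sum in Ctnnb1-ex3 libraries, against 17.1% and 14.0% in WT libraries. Every deposited mouse count is at least 1, probably because 1 was added, and this lifts the sum of genes that are hardly detected. With 1 taken from every count the Wnt sum was 18.3 ± 5.4 CPM per kb in Ctnnb1-ex3 and 3.84 ± 1.21 CPM per kb in WT, and the Wnt3 share was 63.9% and 73.0% in Ctnnb1-ex3 libraries and 20.6% in each WT library.

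Paneth cells are the known source of Wnt3 in the crypt, and their markers were read in the same libraries. The 7 Paneth markers summed to 933 and 1370 CPM in Ctnnb1-ex3, against 811 and 842 CPM in WT; 3 were called higher, 4 were not called and none stood at the lowest value. Of those called higher, Pla2g2a had 74.4 and 90.9 CPM in Ctnnb1-ex3 against 3.22 and 2.28 CPM in WT, Mmp7 had 175 and 236 CPM in Ctnnb1-ex3 against 93.9 and 85.2 CPM in WT, and Ang4 had 123 and 169 CPM in Ctnnb1-ex3 against 96.7 and 70.8 CPM in WT. Of those not called, Lyz1, the lysozyme of Paneth cells, had 237 and 358 CPM in Ctnnb1-ex3 and 274 and 301 CPM in WT, and Defa24, a defensin, had 42.5 and 76.0 CPM in Ctnnb1-ex3 and 52.7 and 75.7 CPM in WT. The part of these cells in the Wnt3 difference was not tested. In bulk RNA a change in the number of cells of a type and a change of RNA in each cell cannot be told apart.

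Wnt5a and Wnt7b were called higher from few counts. Wnt5a, a ligand that mostly acts without beta-catenin, had 37 and 9 counts in Ctnnb1-ex3 libraries, against 1 and 3 counts in WT libraries, a log2 fold change of 2.70 ± 0.85 (SE, edgeR adjusted p = 0.0365). Wnt7b, an epithelial ligand of other organs such as lung and skin, had 20 and 15 counts in Ctnnb1-ex3, against 2 and 2 counts in WT, a log2 fold change of 2.49 ± 0.67 (SE, edgeR adjusted p = 0.0201). The groups did not overlap in either gene. The ratio of summed counts per library size was 7.60 for Wnt5a (95% counting interval 2.78 to 29.1) and 5.78 for Wnt7b (2.07 to 22.4); such intervals cover counting error only. Both calls were lost with DESeq2 and without either WT library, where the adjusted p reached 0.476 for Wnt5a and 0.444 for Wnt7b without WT replicate 1. Wnt5a is a stromal gene in the intestine. The 11 stromal markers summed to 48.4 and 35.7 CPM in Ctnnb1-ex3, against 30.2 and 15.2 CPM in WT; 2 of them (Acta2, Vim) were tested and neither was called. Acta2 had 70 and 11 counts in Ctnnb1-ex3 libraries, against 17 and 9 counts in WT libraries. Pdgfrb had 25 and 6 counts in Ctnnb1-ex3, against 8 and 4 counts in WT. Col1a1 had 1 and 7 counts in Ctnnb1-ex3, against 1 and 1 counts in WT. Col1a2 had 6 and 3 counts in Ctnnb1-ex3, against 1 and 5 counts in WT. Vim had 29.6 and 24.7 CPM in Ctnnb1-ex3, against 21 and 4.18 CPM in WT. Foxl1 had 14 and 8 counts in Ctnnb1-ex3, against 6 and 4 counts in WT. Col3a1, Dcn and Des had at most 3 counts in any library. Pdgfra had at most 2 counts in any library and Lum stood at the lowest value in all 4. The part of stromal cells in the Wnt5a difference was not tested.

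The remaining ligands did not pass the test. Wnt4 had 5.41 and 8.99 CPM in Ctnnb1-ex3, against 5.07 and 5.33 CPM in WT, a log2 fold change of 0.45 ± 0.50 (SE, edgeR adjusted p = 0.493). Wnt2b, which stromal cells are known to make, had 2.40 and 5.14 CPM in Ctnnb1-ex3, against 2.53 and 1.14 CPM in WT, and its groups overlap. The other 14 Wnt genes lay under the filter and had at most 12 counts in any library. Among them Wnt9b had 12 and 11 counts in Ctnnb1-ex3 libraries, against 10 and 2 counts in WT libraries, and Wnt6 had 10 and 2 counts in each of the groups. Wnt3a, the ligand supplied in the WT medium, had 2 and 2 counts in Ctnnb1-ex3 and 2 and 1 counts in WT, so that its own transcript was at or near the lowest value in both.

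None of the 4 R-spondins passed the filter. Rspo4 had 25 and 4 counts in Ctnnb1-ex3 libraries, against 1 and 1 counts in WT libraries, and was at least 2.61-fold higher when WT is set to a floor of 3 counts per library; its Ctnnb1-ex3 libraries differ widely. Rspo1, the enhancer supplied in the WT medium, had 2 and 2 counts in Ctnnb1-ex3 and 1 and 2 counts in WT. Rspo2 and Rspo3, which intestinal stroma is known to make, had between 2 and 5 counts in Ctnnb1-ex3 libraries and between 1 and 5 counts in WT libraries.

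The Frizzled receptors changed in makeup more than in sum. Of the 9 that were tested, Fzd2, Fzd3, Fzd7 and Fzd9 were called higher in Ctnnb1-ex3, Fzd5 was called lower and 4 were not called. Fzd5, a receptor for beta-catenin signalling that mouse Paneth cells need to mature, lies on chr1:64730558-64737751 and had 484 and 395 counts in Ctnnb1-ex3 libraries, against 1252 and 829 counts in WT libraries. In CPM the values were 72.7 and 101 in Ctnnb1-ex3 and 288 and 315 in WT, so that both Ctnnb1-ex3 libraries lay far below both WT libraries. The log2 fold change was -1.80 ± 0.19 (SE, edgeR adjusted p = 0.000474), a level 3.48-fold lower in Ctnnb1-ex3. Fzd7, the receptor known for its role in Lgr5 stem cells of the mouse intestine, had 57.9 and 65.0 CPM in Ctnnb1-ex3, against 25.8 and 29.3 CPM in WT, a log2 fold change of 1.16 ± 0.20 (SE, edgeR adjusted p = 0.00322). Fzd2, which binds ligands of both branches such as Wnt3a and Wnt5a, had 42.8 and 35.7 CPM in Ctnnb1-ex3, against 4.83 and 4.56 CPM in WT, a log2 fold change of 3.05 ± 0.33 (SE, edgeR adjusted p = 0.000465). The replicates of Fzd2 and of Fzd7 were close together in both groups.

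Fzd9 and Fzd3 also stood higher in Ctnnb1-ex3. Fzd9 had 112 and 35 counts in Ctnnb1-ex3 libraries, against 1 and 1 counts in WT libraries, the lowest value in the table. It was at least 14.1-fold higher in Ctnnb1-ex3 when WT is set to a floor of 3 counts per library (edgeR adjusted p = 0.00139). Fzd3, a receptor best known from planar polarity and axon guidance, had 29.2 and 20.6 CPM in Ctnnb1-ex3, against 7.37 and 3.42 CPM in WT, a log2 fold change of 2.15 ± 0.45 (SE, edgeR adjusted p = 0.00729). Its group ranges were well apart.

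The other Frizzled genes did not pass. Fzd6, which like Fzd3 serves planar polarity, had 8.42 and 3.84 CPM per kb in Ctnnb1-ex3, against 3.30 and 2.29 CPM per kb in WT (log2 fold change 1.13 ± 0.43, edgeR adjusted p = 0.0666). The groups do not overlap, and the adjusted p was 0.0388 with upper-quartile factors and 0.0326 without the filter. Upper-quartile factors moved all genes upward, by a median of 0.24 in log2 fold change. Fzd4, which besides Wnt ligands binds Norrin, had 62 and 3 counts in Ctnnb1-ex3 libraries, against 44 and 16 counts in WT libraries. Ctnnb1-ex3 replicate 2 alone was low. The log2 fold change was -0.63 ± 0.85 with all libraries and 0.16 when that library was left out. Leaving out Ctnnb1-ex3 replicate 1 instead gave -3.39 (edgeR adjusted p = 8.3e-05). Ctnnb1-ex3 replicate 2 also held 110 counts of Gzma and 25 of Ptprc, immune genes that had at most 1 and 4 counts in the other 3. Fzd1 had 2.86 and 1.54 CPM in Ctnnb1-ex3 and 4.60 and 2.66 CPM in WT, Fzd8 had 3.61 and 2.83 CPM in Ctnnb1-ex3 and 3.68 and 0.761 CPM in WT, and Fzd10 had at most 4 counts in any library.

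Divided by exon length, so that genes can be compared, the 10 Frizzled genes summed to 52.1 ± 4.73 CPM per kb in Ctnnb1-ex3 and 56.6 ± 1.29 CPM per kb in WT (SD, n = 2). Fzd5 made up 18.8% and 29.8% of the sum in Ctnnb1-ex3 libraries, against 74.5% and 78.9% in WT libraries. Fzd7 made up 22.9% and 29.2% in Ctnnb1-ex3, against 10.2% and 11.2% in WT. Fzd2 made up 20.9% and 19.8% in Ctnnb1-ex3, against 2.36% and 2.16% in WT. In Ctnnb1-ex3 no single receptor held more than 29.8% of the Frizzled sum, while in WT Fzd5 held most of it. The ranges of these 3 shares did not overlap between groups, and Fzd9 accounted for a further 10.6% on average in Ctnnb1-ex3 against 0.234% in WT.

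**Figure D2:**
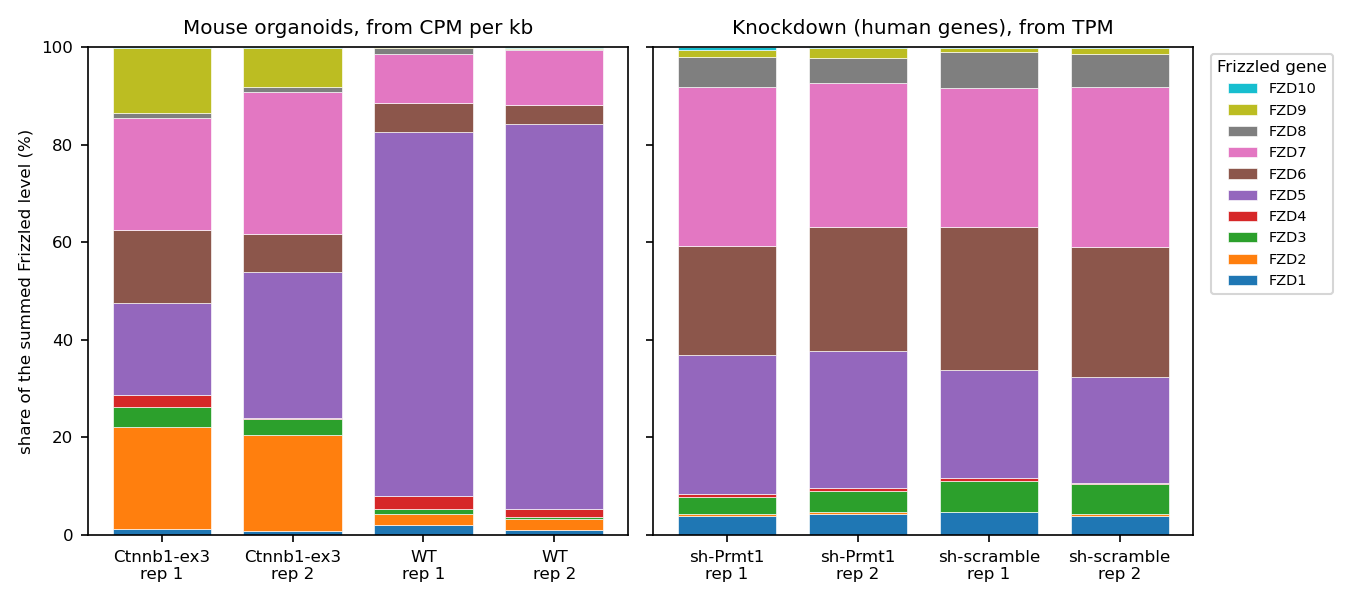
Share of each Frizzled gene in the summed Frizzled level of each library (%), from CPM per kilobase of exon in mouse organoids on the left and from TPM in the knockdown libraries on the right. Fzd5 fills 18.8% and 29.8% of the Ctnnb1-ex3 bars and 74.5% and 78.9% of the WT bars, while the knockdown bars are alike in their leading genes, FZD7, FZD5 and FZD6.

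Markers of several cell types also differed between the groups. All 6 enterocyte markers were called lower in Ctnnb1-ex3, with summed levels of 829 and 618 CPM against 3180 and 4000 CPM in WT. All 6 crypt base stem markers were called higher, with summed levels of 1070 and 1240 CPM in Ctnnb1-ex3 against 310 and 333 CPM in WT. All 4 enteroendocrine markers were called higher (452 and 546 CPM in Ctnnb1-ex3, 261 and 132 CPM in WT, summed), as were all 3 tuft markers (257 and 279 CPM in Ctnnb1-ex3, 75.7 and 49.1 CPM in WT). Of 5 goblet markers 1 was called higher and 2 lower, with sums of 696 and 955 CPM in Ctnnb1-ex3 and 1110 and 1330 CPM in WT. The part of these cell types in the Frizzled differences was not tested. The 8 epithelial markers summed to 1650 and 2240 CPM in Ctnnb1-ex3 and 2340 and 2950 CPM in WT, and the endothelial markers had at most 8 counts in any library.

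The co-receptors Lrp5 and Lrp6, which carry the signal together with Frizzled, differed in their response. Lrp5 had 30.8 and 25.7 CPM in Ctnnb1-ex3, against 6.45 and 6.47 CPM in WT, a log2 fold change of 2.13 ± 0.34 (SE, edgeR adjusted p = 0.00251). Lrp6 had 115 and 122 CPM in Ctnnb1-ex3, against 143 and 146 CPM in WT, a log2 fold change of -0.29 ± 0.13 that did not pass (edgeR adjusted p = 0.115). The fold changes of these co-receptors were not tested against each other. Per kilobase of exon Lrp6 remained the more abundant, at 8.43 and 8.92 CPM per kb in Ctnnb1-ex3 libraries and 10.5 and 10.7 CPM per kb in WT libraries. Lrp5 stood at 3.16 and 2.64 CPM per kb in Ctnnb1-ex3 and at 0.662 and 0.664 CPM per kb in WT.

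Ror2, the tyrosine kinase-like receptor of Wnt5a, was called higher. It had 124 and 116 counts in Ctnnb1-ex3 libraries, against 16 and 6 counts in WT libraries, which is 18.6 and 29.8 CPM in Ctnnb1-ex3 and 3.68 and 2.28 CPM in WT. The log2 fold change was 2.96 ± 0.47 (SE, edgeR adjusted p = 0.0024), and the groups are far apart. Ryk, a Wnt receptor whose kinase domain is inactive, had 140 and 99.9 CPM in Ctnnb1-ex3, against 87.9 and 85.2 CPM in WT (log2 fold change 0.48 ± 0.18, edgeR adjusted p = 0.0634). The groups of Ryk do not overlap, and it passed with cyclic loess scaling (0.63, adjusted p = 0.027) and with upper-quartile factors (0.72, adjusted p = 0.0176). Upper-quartile factors moved the log2 fold changes of all genes by a median of 0.24, and cyclic loess by -0.13. Ror1 had at most 2 counts in any library.

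Of the secreted inhibitors, Sfrp5 was the one at a substantial level. It captures Wnt ligands and lies on chr19:42197971-42202252. Sfrp5 had 359 and 200 counts in Ctnnb1-ex3 libraries, against 30 and 21 counts in WT libraries. In CPM the values were 54.0 and 51.4 in Ctnnb1-ex3 and 6.91 and 7.99 in WT, with replicates close together and the groups far apart. The log2 fold change was 2.83 ± 0.27 (SE, edgeR adjusted p = 0.0003), a level 7.12-fold higher in Ctnnb1-ex3. The other Sfrp genes lay under the filter, with at most 8 counts in any library. Dkk3, a divergent family member that does not act on Lrp6 as Dkk1 does, had 16 and 13 counts in Ctnnb1-ex3 libraries, against 1 and 1 counts in WT libraries. It was at least 3.14-fold higher in Ctnnb1-ex3 with WT set to a floor of 3 counts per library (edgeR adjusted p = 0.013), a call that was lost with DESeq2 (adjusted p = 0.133) and without either WT library.

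Dkk1, a well-known target of beta-catenin and an inhibitor of Lrp5 and Lrp6, had 12 and 13 counts in Ctnnb1-ex3 libraries, against 14 and 8 counts in WT libraries. Its groups overlap (log2 fold change -0.33 ± 0.57, edgeR adjusted p = 0.673). Dkk2 had 18 and 12 counts in Ctnnb1-ex3, against 7 and 5 counts in WT, and its log2 fold change of 0.72 ± 0.56 did not pass (edgeR adjusted p = 0.331). Dkk4 had at most 4 counts in any library.

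Other genes of the pathway came from lists of known components. Of the Wnt secretion genes 2 were tested: Wls had 106 and 95.6 CPM in Ctnnb1-ex3 against 54.3 and 59.7 CPM in WT and was called higher (log2 fold change 0.82 ± 0.14, edgeR adjusted p = 0.00322), while Porcn had 18.8 and 18.0 CPM in Ctnnb1-ex3 against 7.14 and 12.6 CPM in WT and was not called. Among the R-spondin receptors and ubiquitin ligases, 3 of 4 tested were called higher and none lower. These were Lgr5 at a log2 fold change of 4.07 ± 0.18 (SE, edgeR adjusted p = 2.4e-05), Rnf43 at 1.58 ± 0.17 and Znrf3 at 0.56 ± 0.13. Lgr4, the widely expressed R-spondin receptor, had 179 and 238 CPM in Ctnnb1-ex3 against 257 and 308 CPM in WT and did not pass. Of 9 tested modulators outside the 46 genes, 5 were called higher and none lower. They include Gpc3, a heparan sulfate proteoglycan that was at least 5.26-fold higher with WT set to the floor, the pseudokinase Ptk7 at 2.98 ± 0.49 and Tmem67 at 2.75 ± 0.61. Of 8 Dishevelled and planar polarity genes 4 were called higher and none lower, led by Celsr2 at 3.04 ± 0.40, Vangl2 at 2.40 ± 0.53 and Vangl1 at 2.01 ± 0.26. Of 11 genes of the destruction complex and feedback 5 were called higher and none lower, led by Nkd1 at 4.41 ± 0.49, Axin2 at 3.40 ± 0.17 and Tcf7 at 3.06 ± 0.63. Members of each of these lists that did not pass number 1, 1, 4, 4 and 6, and the crypt base stem markers share Lgr5 and Axin2 with them.

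In the authors' deposited table of the same libraries, 9 of the 46 genes had an adjusted p under 0.05, 8 of them higher and 1 lower in Ctnnb1-ex3, where 18.7% of its 21757 genes did (8.38% higher and 10.3% lower). Of the genes called higher here, the authors' deposited table gives an adjusted p of 0.369 for Wnt5a, 0.0643 for Wnt7b and 0.192 for Dkk3.

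Few genes of the family were called in the knockdown. Of 18 genes that passed the filter, 2 were called higher in sh-Prmt1 (FZD5, WNT10B), 2 were called lower (FZD3, RYK) and 14 were not called. Of all 18452 genes tested 40.9% were called, 20.5% as higher and 20.4% as lower, so that the share called here was below that of all genes. The median log2 fold change was 0.21 over the 18 genes and 0.03 over all genes tested. The groups did not overlap in 6 genes that were higher and 5 that were lower. The same count was not made over all genes tested, so it is given as a description only. The other 28 of the 46 genes lay under the filter, with at most 25 estimated counts in any library. Of the 18 tested, DKK3 and FZD2 had both sh-scramble libraries under the filter's minimum of 0.234 CPM.

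**Figure D3:**
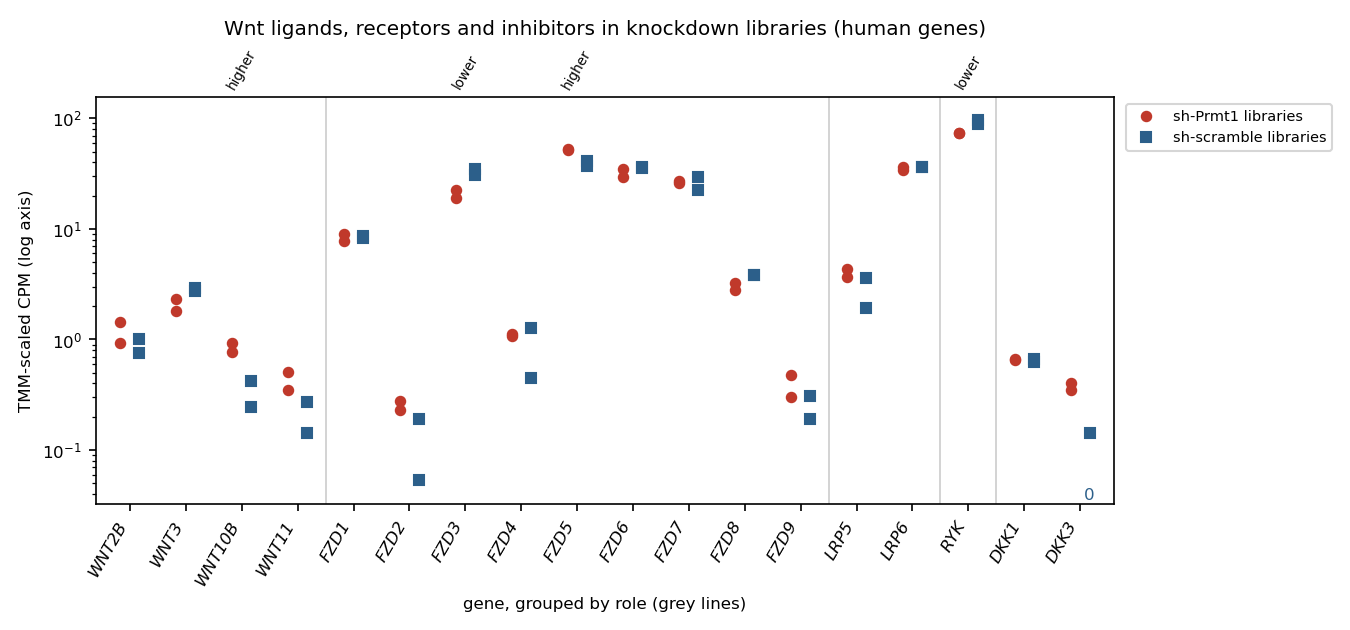
Level of each of the 18 tested genes in the 4 knockdown libraries (TMM-scaled CPM, log axis), with sh-Prmt1 libraries as circles on the left and sh-scramble libraries as squares on the right of each gene; words above the frame mark called genes and a printed 0 stands for a library with no count. Most circles lie close to or among the squares, and the 4 called genes differ by less than 3-fold.

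Among the receptors, FZD5 was called higher and FZD3 lower. FZD5 had 51.3 and 52.6 CPM in sh-Prmt1 libraries, against 37.3 and 41.3 CPM in sh-scramble libraries, a log2 fold change of 0.40 ± 0.09 (SE, edgeR adjusted p = 0.0051). Its sh-Prmt1 libraries were both above the sh-scramble libraries by more than the spread within either group; without sh-scramble replicate 1 the log2 fold change was 0.28 and did not pass (edgeR adjusted p = 0.0727). FZD3 had 19.0 and 22.6 CPM in sh-Prmt1 libraries, against 30.7 and 35.1 CPM in sh-scramble libraries, a log2 fold change of -0.66 ± 0.11 (SE, edgeR adjusted p = 0.00127). RYK had 73.4 and 73.1 CPM in sh-Prmt1 libraries, against 89.2 and 97.6 CPM in sh-scramble libraries, a log2 fold change of -0.35 ± 0.09 (SE, edgeR adjusted p = 0.00923). In both genes the groups do not overlap, and both calls held without any 1 of the 4 libraries.

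FZD6 and FZD7 were not called. FZD6 had 29.7 and 35.2 CPM in sh-Prmt1 libraries and 35.4 and 36.6 CPM in sh-scramble libraries, and FZD7 had 27.3 and 25.9 CPM in sh-Prmt1 libraries and 22.5 and 29.4 CPM in sh-scramble libraries. Of the less abundant receptors, FZD8 had 3.25 and 2.82 CPM in sh-Prmt1 and 3.80 and 3.84 CPM in sh-scramble, and FZD1 had 7.85 and 9.07 CPM in sh-Prmt1 and 8.60 and 8.25 CPM in sh-scramble. FZD4 had 46 and 64 counts in sh-Prmt1 libraries, against 47 and 19 counts in sh-scramble libraries, so that sh-scramble replicate 2 alone was low. FZD2 had 12 and 13 counts in sh-Prmt1 libraries, against 2 and 8 counts in sh-scramble libraries. FZD9 had 13 and 27 counts in sh-Prmt1 libraries, against 7 and 13 counts in sh-scramble libraries, and FZD10 had at most 15 counts in any library. None of these receptors was called. In TPM, which corrects for length, the 10 Frizzled genes summed to 19.5 ± 0.36 in sh-Prmt1 and 17.1 ± 1.95 in sh-scramble (SD, n = 2). FZD7 held 31.0 ± 2.04% of the sum in sh-Prmt1 and 30.6 ± 3.25% in sh-scramble, FZD5 held 28.3 ± 0.274% in sh-Prmt1 and 22.0 ± 0.279% in sh-scramble, and FZD6 held 23.9 ± 1.97% in sh-Prmt1 and 28.0 ± 1.96% in sh-scramble. The FZD5 share was higher in both sh-Prmt1 libraries than in both sh-scramble libraries, and no single receptor held most of the sum in any library.

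The co-receptors were not called. LRP6 had 34.3 and 36.6 CPM in sh-Prmt1 libraries and 36.7 and 36.5 CPM in sh-scramble libraries, a log2 fold change of -0.05 ± 0.09 (SE, edgeR adjusted p = 0.701). LRP5 had 159 and 245 counts in sh-Prmt1 libraries, against 72 and 152 counts in sh-scramble libraries, a log2 fold change of 0.53 ± 0.26 (SE, edgeR adjusted p = 0.139), which was 1.03 (adjusted p = 0.00272) without sh-scramble replicate 2. The effective length deposited for LRP5 was between 374 and 474 bases, against 10062 to 11688 bases for LRP6, which sets the scale of its TPM. LRP5 had 6.16 and 7.36 TPM in sh-Prmt1 libraries and 2.52 and 4.43 TPM in sh-scramble libraries, above LRP6 at 2.02 and 2.05 TPM in sh-Prmt1 libraries and 2.04 and 1.92 TPM in sh-scramble libraries, although LRP6 had more counts. ROR1 and ROR2 had at most 5 counts in any library.

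Ligand transcripts were scarce in the knockdown libraries, and WNT10B was the only one called. WNT10B, which activates beta-catenin signalling, had 33 and 53 counts in sh-Prmt1 libraries, against 9 and 18 counts in sh-scramble libraries, a log2 fold change of 1.34 ± 0.44 (SE, edgeR adjusted p = 0.0343). The groups do not overlap, but the call was lost with DESeq2 (adjusted p = 0.163) and without sh-Prmt1 replicate 1 (0.077), sh-Prmt1 replicate 2 (0.168) or sh-scramble replicate 1 (0.185). WNT3 had 2.31 and 1.81 CPM in sh-Prmt1 libraries, against 2.94 and 2.76 CPM in sh-scramble libraries, a log2 fold change of -0.47 ± 0.22 that did not pass (edgeR adjusted p = 0.116). WNT2B had 40 and 81 counts in sh-Prmt1 libraries and 38 and 32 counts in sh-scramble libraries. Its effective length was 5345 and 6468 bases in sh-Prmt1 against 9140 and 10512 bases in sh-scramble, and with that length in the model its log2 fold change was 1.17 (edgeR adjusted p = 0.0479) in place of 0.42 (0.37). WNT11, which acts mostly without beta-catenin, had 15 and 29 counts in sh-Prmt1 libraries, against 10 and 6 counts in sh-scramble libraries, and was not called.

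The 19 WNT genes summed to 2.93 and 2.56 TPM in sh-Prmt1 libraries, against 1.22 and 1.28 TPM in sh-scramble libraries. WNT3 held 21.3 ± 1.4% of that sum in sh-Prmt1 and 51.6 ± 2.66% in sh-scramble, at a TPM of 0.652 and 0.520 in sh-Prmt1 and 0.652 and 0.637 in sh-scramble. The larger sum thus came from other ligands. WNT10B, which was called, had 0.449 and 0.428 TPM in sh-Prmt1, against 0.0955 and 0.178 TPM in sh-scramble. Most of the other ligands lay under the filter. Among these, WNT6 had 7 and 14 counts in sh-Prmt1 libraries, against 1 and 3 in sh-scramble libraries. WNT7B had 7 and 19 counts in sh-Prmt1, against 1 and 2 in sh-scramble, and WNT9B had 22 and 12 counts in sh-Prmt1, against 6 and 3 in sh-scramble. TPM also depends on effective length, which differed between the groups for some ligands, such as WNT2B above. The part of effective length in the larger sum was not tested. Of the 28 genes under the filter, 22 (78.6%) had a higher mean CPM in sh-Prmt1. The same held for 4441 of all 5913 protein-coding genes under the filter (75.1%). Of the 15 ligands among the 28 genes, 13 (86.7%) were higher.

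The R-spondins had at most 9 counts and the SFRP genes at most 7 counts in any knockdown library. SFRP5 had 4 and 7 counts in sh-Prmt1 libraries and 2 and 7 counts in sh-scramble libraries. DKK1 had 28 and 38 counts in sh-Prmt1 libraries and 23 and 28 counts in sh-scramble libraries, a log2 fold change of 0.05 ± 0.38 (SE, edgeR adjusted p = 0.937). DKK3 had 15 and 23 counts in sh-Prmt1 libraries, against 0 and 6 counts in sh-scramble libraries, and was not called (edgeR adjusted p = 0.0557). DKK4, an inhibitor of Lrp co-receptors that beta-catenin is known to induce, had 6 and 25 counts in sh-Prmt1 libraries, against 1 and 4 counts in sh-scramble libraries.

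Other pathway genes moved in both directions. Of 3 tested secretion genes WLS and TRABD2A were called higher and PORCN was not called; WLS had 8.36 and 9.97 CPM in sh-Prmt1 libraries, against 5.12 and 4.43 CPM in sh-scramble libraries (log2 fold change 0.94 ± 0.16, edgeR adjusted p = 0.00103). Of 4 tested R-spondin receptors and ubiquitin ligases LGR5 was called lower, with 20.3 ± 0.44 CPM in sh-Prmt1 libraries against 32.6 ± 3.93 CPM in sh-scramble libraries (SD, n = 2, log2 fold change -0.68 ± 0.10, edgeR adjusted p = 0.000709), and none was called higher. Of 15 tested modulators KREMEN2 and TPBG were called higher and GPC3 and TMEM67 lower; KREMEN2, which binds Dkk proteins, had 10 and 28 counts in sh-Prmt1 libraries and 0 and 0 counts in sh-scramble libraries, at least 4.79-fold higher with sh-scramble set to a floor of 3 counts per library. Of 8 Dishevelled and planar polarity genes DVL1 and VANGL1 were called higher and none lower. Of 11 genes of the destruction complex and feedback GSK3B and LEF1 were called higher and CSNK1A1 and CTNNB1 lower, with CTNNB1 at a log2 fold change of -0.72 ± 0.16 (SE, edgeR adjusted p = 0.00549).

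Stromal, enteroendocrine and tuft markers were scarce in the knockdown libraries. Markers of other epithelial types were present, and some of them were called. The 4 enteroendocrine markers summed to 0.49 and 0.493 CPM in sh-Prmt1 and 0.432 and 0.33 CPM in sh-scramble. The 3 tuft markers summed to 0.677 and 0.282 CPM in sh-Prmt1 and 0.27 and 0.212 CPM in sh-scramble. The 6 crypt base stem markers summed to 131 and 127 CPM in sh-Prmt1 and 129 and 144 CPM in sh-scramble. Of the 4 tested stem markers 2 were called lower. The 11 stromal markers summed to 3.43 and 2.31 CPM in sh-Prmt1 and 1.62 and 2.19 CPM in sh-scramble, with none called, and the 8 epithelial markers to 4420 and 4270 CPM in sh-Prmt1 and 3540 and 3500 CPM in sh-scramble, with 3 called higher. The 6 enterocyte markers, nearly all of their level from FABP1, summed to 5520 and 5620 CPM in sh-Prmt1 and 7310 and 7930 CPM in sh-scramble, with 1 of 4 tested called higher and 1 lower. The 5 goblet markers summed to 495 and 593 CPM in sh-Prmt1 and 1300 and 1140 CPM in sh-scramble, most of it from AGR2. AGR2 had 444 and 532 CPM in sh-Prmt1 and 1230 and 1100 CPM in sh-scramble and was called lower (log2 fold change -1.25 ± 0.12). MUC2, TFF3 and FCGBP were not called, and SPDEF lay under the filter. Of 4 tested Paneth markers 3 were called higher and 1 lower. Of 7 blood and immune markers 2 were tested and 1 was called higher, namely CD68, a macrophage marker. CD68 had 3.76 and 3.20 CPM in sh-Prmt1 and 1.16 and 0.849 CPM in sh-scramble. The 7 markers summed to 4.25 and 3.77 CPM in sh-Prmt1 and 1.51 and 1.18 CPM in sh-scramble, most of it from CD68. Those under the filter had at most 7 counts in any library. The part of these cells in the values above was not tested. In the authors' deposited table of the knockdown, 13 of the 46 genes have an adjusted p, and 2 of them, FZD3 (0.00121) and RYK (0.00167), lie under 0.05, both lower, where 42.2% of its 13991 genes do (17.9% higher and 24.4% lower). The authors' deposited table gives 0.0517 for FZD5 and 0.457 for WNT10B.

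The experiments share no libraries, differ in species by their tables and were fitted apart, so their values can only be set side by side. FZD5 was called in both, lower in Ctnnb1-ex3 against WT (-1.80 ± 0.19) and higher in sh-Prmt1 against sh-scramble (0.40 ± 0.09). FZD3 was called in both, at 2.15 ± 0.45 in Ctnnb1-ex3 against WT and at -0.66 ± 0.11 in sh-Prmt1 against sh-scramble. No other gene of the 46 was called in both comparisons, and the genes called in both were not counted over all genes. Outside the family, Wls, Vangl1, Tpbg and Lef1, for example, were called higher in both. Lgr5, Gpc3 and Tmem67 were called higher in Ctnnb1-ex3 and lower in sh-Prmt1. Wnt3 and Sfrp5, with log2 fold changes of 3.78 and 2.83 in Ctnnb1-ex3, were not called in the knockdown, where WNT3 had at most 117 counts and SFRP5, with at most 7, lay under the filter. The difference between the experiments itself was not tested.

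**Figure D4:**
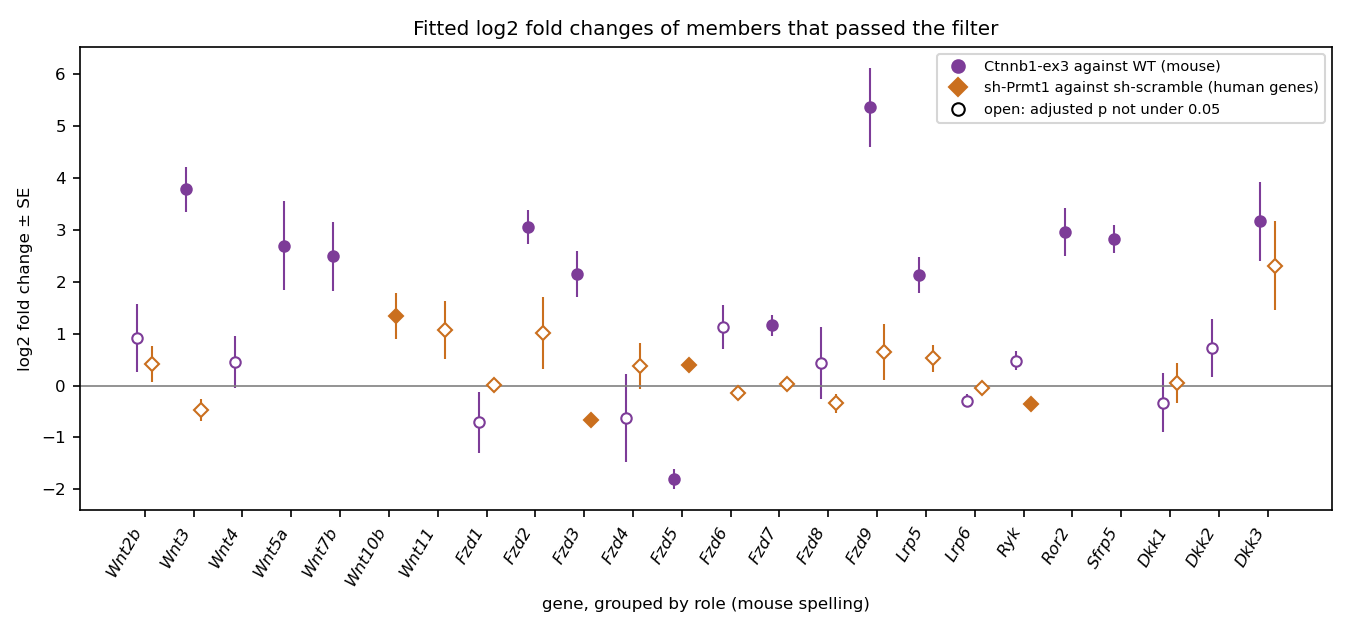
Fitted log2 fold change ± SE of each gene that passed the filter in either experiment, for Ctnnb1-ex3 against WT as circles and sh-Prmt1 against sh-scramble as diamonds; open symbols were not called. Circles spread between -1.80 (Fzd5) and 5.36 (Fzd9, whose WT libraries are at the lowest deposited count), while diamonds lie between -0.66 (FZD3) and 2.31 (DKK3, open).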

How the data were processed

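The gene family and the pathway lists were proposed with earlier results of these data known, although the membership rule itself reads symbols only. Per the file headers, the mouse table holds whole-number counts per gene symbol deposited by the authors, and the knockdown files hold gene-level Salmon output deposited by the authors with estimated counts, TPM and effective lengths. The submitters' processing notes name mm10, Salmon and DESeq2 without roles; other steps are not given in the sources used. No deposited mouse count is below 1. The identifiers of the knockdown files are human Ensembl genes, although the labels name mouse and mm10. Symbols came from the authors' deposited comparison table. The authors also deposited log2 fold changes and adjusted p-values of each comparison, which are quoted only where named. Per the labels, a custom Smart-seq2 form was used; its standard form keeps no strand, so reads of overlapping antisense genes cannot be told apart.

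Groups and replicate numbers came from titles. The experiments were fitted separately in edgeR 4.0.16 under R 4.3.3 (TMM, filterByExpr, two-sided quasi-likelihood test, Benjamini-Hochberg over all genes tested, threshold 0.05); estimated counts were rounded first. The biological coefficient of variation was 0.171 (genotype) and 0.105 (knockdown). No replicates were alike to within counting noise, and each was kept as its own sample. The scripts were tested on simulated data. Mouse positions and exon lengths are from GENCODE M21 (GRCm38) and promoter windows from RefSeq. Alternatives were upper-quartile and DESeq2 factors, DESeq2 1.42.0, cyclic loess with limma 3.58.1, no filter, a replicate block, 1 taken from every mouse count, an effective length offset, and each replicate left out. All 46 genes are named by role; other pathway genes come from fixed lists, with up to 3 named a list by size of fold change. Further pathway genes and single cell type markers were named after their values were seen.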

Additional observations from a re-analysis of the deposited data

How the results depend on the processing

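Of the 12 mouse genes called, Wnt3, Fzd2, Fzd3, Fzd5, Fzd7, Fzd9, Lrp5, Ror2 and Sfrp5 kept direction and call under every alternative that was run; Wnt5a, Wnt7b and Dkk3 lost the call under DESeq2, cyclic loess (0.90, 0.81 and 0.96) and without either WT library, Wnt7b also without the filter, and Wnt5a fell under the filter with 1 taken from every count or without Ctnnb1-ex3 replicate 1. Upper-quartile factors moved the median of all genes by 0.24 and called 1752 of all genes lower, with 68% of calls higher against 49.8%; cyclic loess moved it by -0.13. Leaving out 1 library gave 8 to 14 genes of the 46 higher and 1 to 2 lower in Ctnnb1-ex3 (2, with Fzd4, without Ctnnb1-ex3 replicate 1), and 1110 to 4008 of all genes higher and 1524 to 3749 lower, the lowest without WT replicate 2. In the knockdown DESeq2 called 1 of the 46 genes higher (2508 of all genes), and no filter 6 (3533 of all genes). Leaving out sh-scramble replicate 2 gave 4 (FZD5, WNT10B, DKK3, LRP5) and either sh-Prmt1 library 1 (FZD5); without sh-scramble replicate 1 the 1 gene was FZD4, and neither FZD5 nor WNT10B remained; FZD3 and RYK held under each.

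Uncalled genes changed sign as follows. With cyclic loess Dkk2 stood at -0.35, Fzd8 at -0.24, Wnt2b at -0.06 and Wnt4 at -0.29, and DKK1 and FZD1 at -0.07. With 1 library left out the range was -0.79 to 0.07 for Dkk1, -3.39 to 0.16 for Fzd4, -0.20 to 2.02 for Fzd8, -0.22 to 1.24 for FZD4, -0.05 to 0.08 for DKK1, -0.19 to 0.22 for FZD7 and -0.12 to 0.09 for FZD1. DESeq2 gave DKK1 -0.01, FZD1 -0.05 and FZD7 -0.03, its size factors FZD1 -0.01, no filter FZD1 -0.02 and FZD7 -0.01, and the length offset FZD1 -0.03. The cause was not tested.

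With the replicate number as a block, 13 of the 46 genes were higher and 1 lower in Ctnnb1-ex3, and 2 higher and 2 lower in sh-Prmt1. Of all genes the block called 2981 higher and 3503 lower in Ctnnb1-ex3, against 2637 and 2654 without it. In sh-Prmt1 it called 3527 of all genes higher and 3578 lower, against 3789 and 3765 without it. The numbers did not pair the libraries: deviations of same-numbered libraries correlated at 0.0706 and -0.0515 across genes. At these depths 24 mouse and 28 human genes were too low to test.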
